A study of Mus musculus with 8 samples.

Results

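Sphingolipid and galactolipid synthesis was followed through 10 genes, chosen by name as the enzymes that build ceramide and then turn it into galactolipids, glucosylceramide or sphingomyelin. They are Sptlc1, Sptlc2, Kdsr, Cers2, Degs1, Fa2h, Ugt8a, Gal3st1, Ugcg and Sgms1. All 10 were found among the 53090 genes of the files, and all 10 passed the filter on low counts, as did 17090 genes in all. RNA was sequenced from mouse sciatic nerves at postnatal day 7 in 2 groups of 4 libraries. In the Nae1 cKO group both Nae1 alleles were floxed and Cre was driven by a promoter active in Schwann cells from before birth, so that neddylation was targeted in Schwann cells and not in the other cells of the nerve. The group labelled WT held Cre-negative littermates with 1 or 2 floxed Nae1 alleles, and the labels do not give which nerve had which. The question of the comparison was how gene expression in the nerve differed when Schwann cells lost NAE1, a subunit of the enzyme that activates NEDD8.

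Sphingolipids start from serine and a fatty acyl-CoA, which serine palmitoyltransferase joins into a long-chain base. Ceramide synthases then add a fatty acid, and a desaturase completes ceramide. In myelinating Schwann cells much of the ceramide receives galactose, often after its fatty acid has been hydroxylated, and part of the resulting galactosylceramide is sulfated to sulfatide. These galactolipids are characteristic lipids of the myelin membrane, whereas glucosylceramide and sphingomyelin are made by most cells.

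The upstream sequences of Ugt8a and Gal3st1 are shown because these genes stand at successive steps of galactolipid synthesis and fell together. Promoter windows from RefSeq on GRCm38.p6 were matched by symbol for 9 of the 10 genes, in 15 windows, and Fa2h was the gene without one. Each sequence below is the 250 bases before the start, written along the gene's strand, with matches to any of 5 motifs on either strand in capitals. The Ugt8a sequence is chr3:125938653-125938902 on the minus strand and the Gal3st1 sequence is chr11:3983386-3983635 on the plus strand. For Ugt8a the start is that of RefSeq, and the gene in the GENCODE annotation begins downstream of it, at 125938619.
Ugt8a: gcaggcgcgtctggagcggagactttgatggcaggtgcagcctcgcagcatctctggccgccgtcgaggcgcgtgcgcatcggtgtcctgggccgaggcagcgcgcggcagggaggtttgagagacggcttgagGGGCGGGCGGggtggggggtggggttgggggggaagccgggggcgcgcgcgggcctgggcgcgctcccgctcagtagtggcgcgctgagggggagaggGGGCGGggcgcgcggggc
Gal3st1: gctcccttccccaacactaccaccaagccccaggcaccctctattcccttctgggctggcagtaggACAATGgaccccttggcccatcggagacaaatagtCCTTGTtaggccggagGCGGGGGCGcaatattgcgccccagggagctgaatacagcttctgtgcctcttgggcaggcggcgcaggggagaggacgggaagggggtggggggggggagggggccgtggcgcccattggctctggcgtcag

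The motifs were an EGR-type GCGNGGGCG, a SOX-type ACAANG, a sterol-response type TCACNCCAC, the E-box CACGTG and the GC box GGGCGG. Among all 32851 windows of the same length, 4.7% held the EGR-type motif, 36.3% the SOX-type motif, 1.05% the sterol-response type, 6.02% the E-box and 32.7% the GC box. Counted per gene, with a match in any window of the gene, the shares of 27025 genes were 5.33%, 39.9%, 1.22%, 6.86% and 35.4% in the same order. Gal3st1 was the 1 gene of 9 with the EGR-type motif. It has 3 windows with different starts, and in the window shown the EGR-type match began 133 bases before the start and SOX-type matches 184 and 149 bases before it. The next window overlaps this one and held the same matches at 148, 199 and 164 bases, and the third window held no match to any of the 5 motifs. The SOX-type motif was found in 3 genes, namely Sptlc1, Gal3st1 and Sgms1. The sterol-response type was found in 0 of the 9 genes, the E-box in 2 (Cers2 and Degs1) and the GC box in 7. Ugt8a held only GC boxes, at 116, 112 and 18 bases before its start, the first pair of which overlap in the sequence above, and its 250 bases were 76.8% G or C against a median of 52.4% over all windows. A match is a string of letters and was not tested as a binding site.

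The libraries held between 12962798 and 14766770 expected counts. Nae1 itself had 89.8, 81.3, 77.7 and 82.7 CPM (counts per 1000000, scaled by the trimmed mean of M values) in WT nerves K1, L3, L4 and L9 and 57.1, 57.2, 48.9 and 43.8 in Nae1 cKO nerves K2, L1, L5 and L8. It was 62.4% of WT on average (log2 fold change −0.68, SE 0.0971, edgeR adjusted p = 0.000277). In TPM (transcripts per 1000000) it was 27.32 to 30.1 in WT and 15.4 to 28.8 in Nae1 cKO. On that scale the groups overlapped, with nerve L1 inside the WT range. The nerves also differed in other cells' markers. The summed TPM of 6 macrophage markers was 37.6 to 48.5 in WT and 83.2 to 126 in Nae1 cKO, with 5 of 6 higher. That of 6 skeletal muscle markers was 18.9 to 187 in WT and 7.73 to 16.3 in Nae1 cKO, with 3 of 6 lower. At an unadjusted p under 0.05 (edgeR), all 6 macrophage markers were higher and all 6 muscle markers were lower. Of all 17090 genes tested, at least 6065 had an unadjusted p that low, in either direction. At an adjusted p under 0.05, which the other marker counts here use, 14.1% of all genes were higher and 12.3% lower. Fibroblast markers summed to 2290 to 2850 in WT and 2130 to 4860 in Nae1 cKO, with 4 of 5 higher, endothelial markers to 70.2 to 84.8 and 46.1 to 85.6, with 3 of 4 lower, and adipocyte markers to 7.5 to 22.6 and 7.83 to 35.9, with 0 of the 3 tested called at an adjusted or an unadjusted p under 0.05. Among the defining markers, Cidec and Lep of the adipocyte list were at 0 in 2 nerves each.

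The 3 genes of the galactolipid branch, Fa2h, Ugt8a and Gal3st1, were lower in Nae1 cKO nerves by more than 2-fold. Of the 5 genes of ceramide synthesis, Sptlc1, Sptlc2, Cers2 and Degs1 were lower by less than that and Kdsr did not pass the test. Ugcg and Sgms1, the entries to glucosylceramide and sphingomyelin, did not pass it either. In all, 7 of the 10 genes were lower and 0 were higher at an adjusted p under 0.05 (edgeR quasi-likelihood test, Benjamini-Hochberg adjustment over 17090 genes), where 26.4% of all genes tested passed, 12.3% lower and 14.1% higher. At an unadjusted p under 0.05 in the same fit the count of higher genes was also 0. At an adjusted p under 0.05 it was 1 with library totals and 0 by each other alternative, DESeq2 and limma-voom included. The same 7 genes had every Nae1 cKO nerve below every WT nerve, as did 13.7% of all genes. A fall of more than 2-fold was found for 2.49% of all genes and a rise of more than 2-fold for 4.25%. The median log2 fold change was −0.46 over the 10 genes and 0.0066 over all genes tested.

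**Figure D1:**
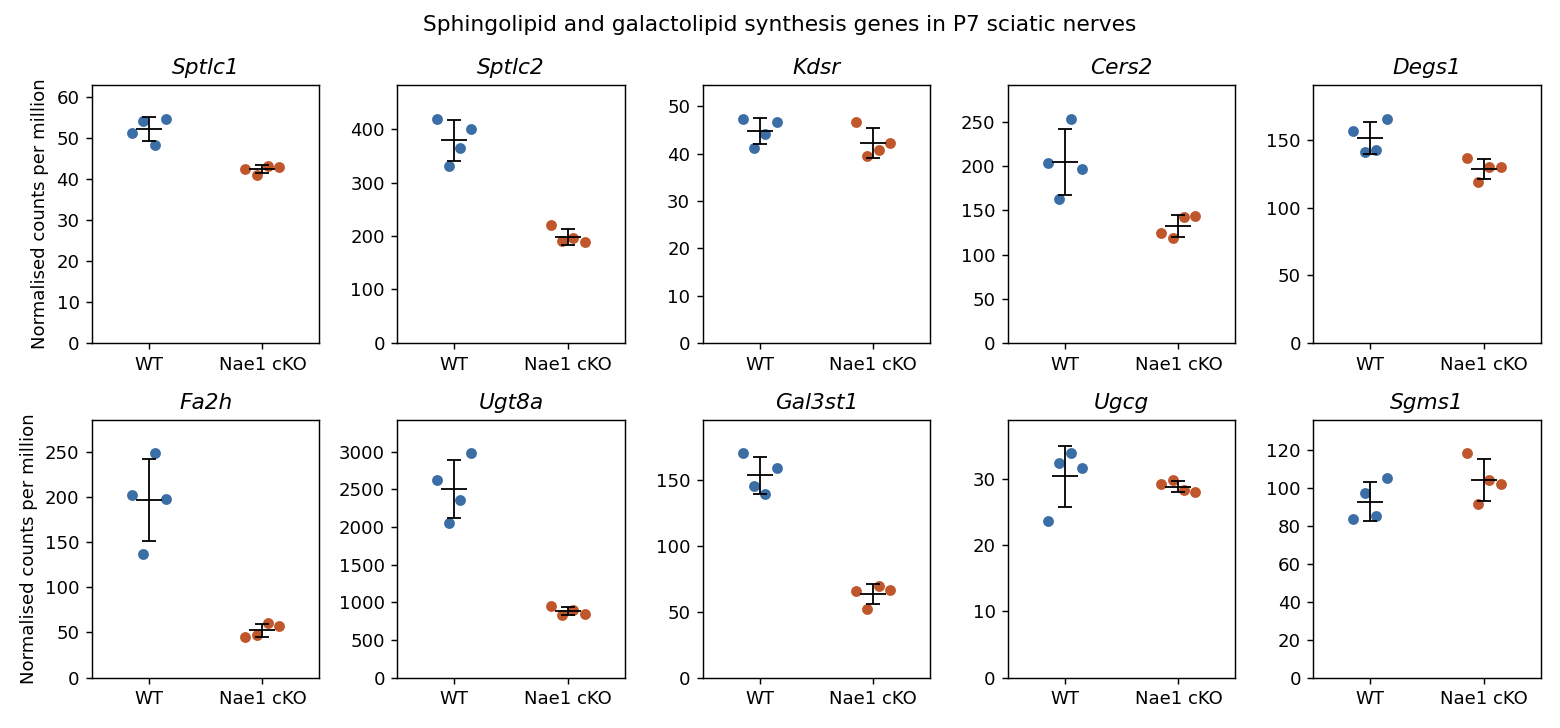
Normalised count in CPM (vertical axes, each from 0) of the 10 genes in 4 WT and 4 Nae1 cKO nerves. Points are nerves and bars are the mean ± SD. The Nae1 cKO nerves lie below all WT nerves for 7 genes, and the groups overlap for Kdsr, Ugcg and Sgms1.

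Fa2h encodes fatty acid 2-hydroxylase, which makes the 2-hydroxy fatty acids of myelin galactolipids. The gene lies at chr8:111345135-111393824 on the minus strand (GRCm38, GENCODE). Its normalised count was 202, 137, 248 and 198 CPM in WT nerves K1, L3, L4 and L9 and 45.2, 46.7, 60.2 and 56.6 CPM in Nae1 cKO nerves K2, L1, L5 and L8. WT nerve L3 was the lowest of its group and still more than any Nae1 cKO nerve. The mean fell from 196 ± 45.4 to 52.2 ± 7.38 CPM (SD, n = 4 each), which is 26.6% of WT (log2 fold change −1.91, 95% interval −2.29 to −1.54, edgeR adjusted p = 1.96e-05).

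Ugt8a encodes ceramide galactosyltransferase, which adds galactose to ceramide, and lies at chr3:125865271-125938619 on the minus strand. It had 2620, 2060, 2360 and 2980 CPM in WT nerves K1, L3, L4 and L9 and 951, 832, 898 and 843 CPM in Nae1 cKO nerves K2, L1, L5 and L8. The Nae1 cKO nerves were close to each other and all lay under the lowest WT nerve. The mean fell from 2510 ± 389 to 881 ± 54.9 CPM, which is 35.1% of WT (log2 fold change −1.51, 95% interval −1.75 to −1.27, edgeR adjusted p = 1.84e-06).

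Gal3st1 encodes cerebroside sulfotransferase, which turns galactosylceramide into sulfatide, and lies at chr11:3983636-3999326 on the plus strand. Its CPM was 170, 145, 139 and 159 in WT nerves K1, L3, L4 and L9 and 65.8, 52.1, 69.3 and 66.2 in Nae1 cKO nerves K2, L1, L5 and L8. Nerve L1 was the lowest of the Nae1 cKO group, and no value overlapped. The mean fell from 153 ± 14.2 to 63.4 ± 7.67 CPM, which is 41.4% of WT (log2 fold change −1.27, 95% interval −1.49 to −1.05, edgeR adjusted p = 3.41e-06).

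In a bulk nerve, fewer Schwann cells and less of an RNA in each Schwann cell cannot be told apart. The Schwann cell markers did not move as one, with 3 of 6 lower, 1 higher and 2 not past the test. Their summed TPM was 4950 to 9390 in WT and 1450 to 2750 in Nae1 cKO, without overlap, a sum that is weighted to the most abundant of the markers. Sox10, a transcription factor of the Schwann cell lineage, fell to 59.9% of WT (log2 fold change −0.74, edgeR adjusted p = 0.00827). S100b and Erbb3, both expressed through Schwann cell development, stood at 94.3% and 94.9% of WT and did not pass the test (adjusted p = 0.608 and 0.537), and Cdh19 was 174% of WT. The part of cell number in the lower galactolipid genes was not tested.

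Serine palmitoyltransferase, the committed step, has a catalytic subunit from Sptlc2 and a partner subunit from Sptlc1. Sptlc2 (chr12:87305058-87388355, minus strand) had 420, 331, 365 and 400 CPM in WT nerves K1, L3, L4 and L9 and 220, 190, 197 and 188 CPM in Nae1 cKO nerves K2, L1, L5 and L8. The groups were well apart, and the mean of 379 ± 39.4 CPM fell to 199 ± 14.6 CPM (log2 fold change −0.93, SE 0.091, edgeR adjusted p = 1.6e-05). Sptlc1 (chr13:53332748-53377397, minus strand) had 51.3, 54.1, 48.3 and 54.7 CPM in WT and 42.3, 41.0, 43.1 and 42.9 CPM in Nae1 cKO nerves in the same order. It fell to 81.3% of WT with no overlap (log2 fold change −0.30, SE 0.0749, edgeR adjusted p = 0.0108). With library totals in place of composition scaling it did not pass (log2 fold change −0.14, adjusted p = 0.231).

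Kdsr encodes the reductase that follows serine palmitoyltransferase (chr1:106720459-106759727, minus strand). It had 47.4, 41.2, 44.1 and 46.6 CPM in WT and 46.7, 39.5, 40.7 and 42.2 CPM in Nae1 cKO nerves. The groups overlapped, and the log2 fold change was −0.08 with a 95% interval of −0.27 to 0.10 (edgeR adjusted p = 0.513).

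Cers2, the ceramide synthase for very-long-chain fatty acids (chr3:95314791-95323599, plus strand), had 204, 163, 254 and 197 CPM in WT and 124, 119, 142 and 144 CPM in Nae1 cKO nerves. It fell to 64.6% of WT (log2 fold change −0.63, SE 0.123, edgeR adjusted p = 0.00256). The annotation places 6330562C20Rik and Setdb1 on the opposite strand over part of the gene, and the strand setting of the counting is not given in the sources used here. Sptlc2 is likewise overlapped by Gm26764 and Gm48806 on the opposite strand. Sgms1 is overlapped by 2700046G09Rik on the opposite strand and by AC113485.1 on its own strand. Degs1, the desaturase that completes ceramide (chr1:182275772-182282804, minus strand), had 157, 141, 143 and 166 CPM in WT and 137, 119, 130 and 130 CPM in Nae1 cKO nerves. Its difference was small (84.9% of WT, log2 fold change −0.24, SE 0.0791) and close to the threshold (edgeR adjusted p = 0.0446). It no longer passed when K1, L9, L1, L5 or L8 was left out singly, with adjusted p of 0.109, 0.111, 0.129, 0.0923 and 0.085.

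**Figure D2:**
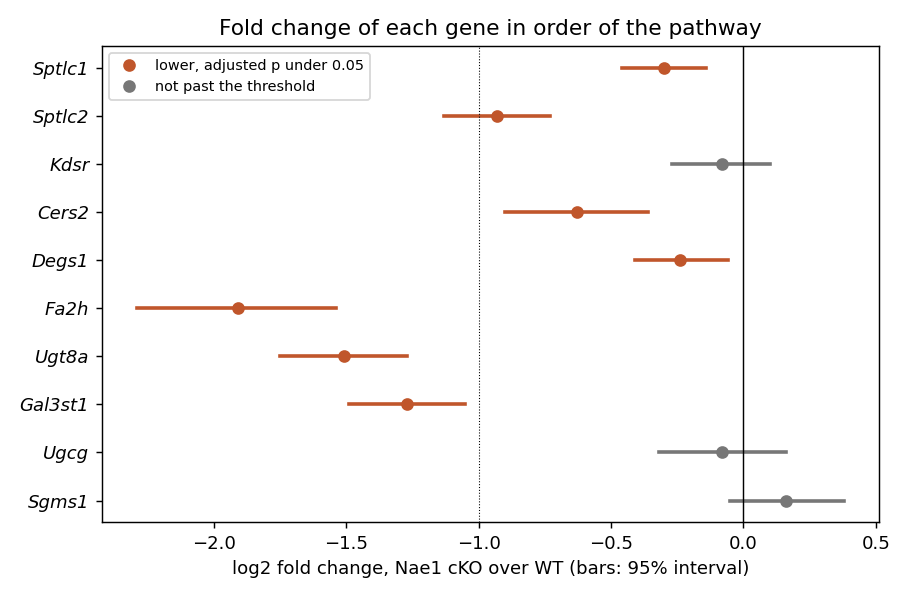
Log2 fold change of Nae1 cKO over WT (horizontal axis) for the 10 genes in pathway order, with 95% intervals from the edgeR fit. Orange marks an adjusted p under 0.05, grey the rest, and the dotted line is a 2-fold fall. Fa2h, Ugt8a and Gal3st1 lie beyond the dotted line, from −1.91 to −1.27.

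Ceramide that is not galactosylated can receive glucose from the product of Ugcg or phosphocholine through that of Sgms1. Ugcg (chr4:59189257-59222833, plus strand) had 23.7, 32.5, 33.9 and 31.7 CPM in WT nerves K1, L3, L4 and L9 and 29.3, 29.8, 28.3 and 28.0 CPM in Nae1 cKO nerves. Nerve K1 was the lowest of all, and the Nae1 cKO nerves lay inside the WT range. The log2 fold change was −0.08 (95% interval −0.32 to 0.16, edgeR adjusted p = 0.652).

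Sgms1 (chr19:32122727-32389714, minus strand) had 83.3, 97.0, 85.1 and 105 CPM in WT and 118, 91.1, 104 and 102 CPM in Nae1 cKO nerves. The groups overlapped, and the log2 fold change was 0.16 (95% interval −0.05 to 0.38, edgeR adjusted p = 0.255). With library totals in place of composition scaling, a setting that moved the median of all genes to 0.163, Sgms1 was higher (log2 fold change 0.31, adjusted p = 0.0239).

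Between genes, levels were compared as TPM, which is per transcript length. In WT nerves Ugt8a was the most abundant of the 10 at a mean of 472 TPM (379.4 to 601.7), followed by Sptlc2 at 117 TPM. Cers2 (70.8 TPM), Gal3st1 (60.3 TPM), Fa2h (58.7 TPM) and Degs1 (53.4 TPM) came next, with ranges that overlapped from each to the next. Sgms1 (24.2 TPM) and Sptlc1 (14.4 TPM) were separate from their neighbours, and Kdsr (6.95 TPM) and Ugcg (6.26 TPM) overlapped. The Sptlc2 level is a sum over its 5 annotated transcripts, of which 1 codes for protein and is 6710 bases long. Weighted by abundance, its mean length was 2288 bases in WT, so its rank may not hold for coding RNA. In Nae1 cKO nerves Ugt8a remained the highest at 184 TPM, and Gal3st1 (27 TPM) and Fa2h (17.4 TPM) came after Degs1 (50.9 TPM) and Sgms1 (28.7 TPM), with ranges that overlapped from Sgms1 to Sptlc1. Nerve K2 had the lowest TPM of the Nae1 cKO nerves for all 10 genes. The small nuclear RNA Rn7sk took 12.7% of the TPM of K2 against 7.76% to 10.2% in the other 7 nerves. Its part in the low levels of K2 was not tested.

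On the TPM scale, Fa2h, Ugt8a, Gal3st1 and Sptlc2 had groups that did not overlap (two-sided exact permutation test, p = 0.0286 for each, the smallest that 4 against 4 nerves can give). For Cers2 the exact p was 0.171, for Sptlc1 0.543 and for Degs1 0.743, and their groups overlapped on this scale.

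Ratios between genes within a nerve do not depend on the scaling of the nerve. For 6 pairs, log2 ratios of TPM were compared by a two-sided exact permutation test with adjustment over the 6 pairs. The ratio of Ugt8a to Ugcg, the galactose against the glucose branch, was 98.5, 59.3, 64.1 and 88.6 in WT nerves K1, L3, L4 and L9 and 28.2, 27.0, 27.2 and 27.7 in Nae1 cKO nerves K2, L1, L5 and L8. The Nae1 cKO values were nearly equal and 2.76-fold lower on average, without overlap (exact p = 0.0286, adjusted p = 0.0571).

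The ratio of Ugt8a to Sgms1 was 14.9 to 21.6 in WT and 5.82 to 6.87 in Nae1 cKO, 3.04-fold lower, and that of Fa2h to Cers2 was 0.709 to 0.877 and 0.326 to 0.351, 2.42-fold lower (exact p = 0.0286, adjusted p = 0.0571 for each). These 3 ratios did not overlap between groups and did not pass the adjusted threshold, since the smallest p that the design allows was shared by 3 of 6 pairs. On CPM in place of TPM a further pair reached the smallest p and all 4 had an adjusted p of 0.0429.

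The added pair was Sptlc2 to Sptlc1, whose TPM ratio was 6.77 to 9.34 in WT and 5.38 to 7.88 in Nae1 cKO (exact p = 0.0571, adjusted p = 0.0857). Both levels are sums over coding and non-coding transcripts, so this is not a ratio of coding RNA. The last pairs had overlapping groups on either scale. The log2 ratio of Gal3st1 to Ugt8a was −2.95 ± 0.164 in WT and −2.77 ± 0.156 in Nae1 cKO (exact permutation p = 0.171, adjusted p = 0.206), and that of Ugcg to Sgms1 was −1.97 ± 0.227 and −2.11 ± 0.133 (exact permutation p = 0.4, adjusted p = 0.4).

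**Figure D3:**
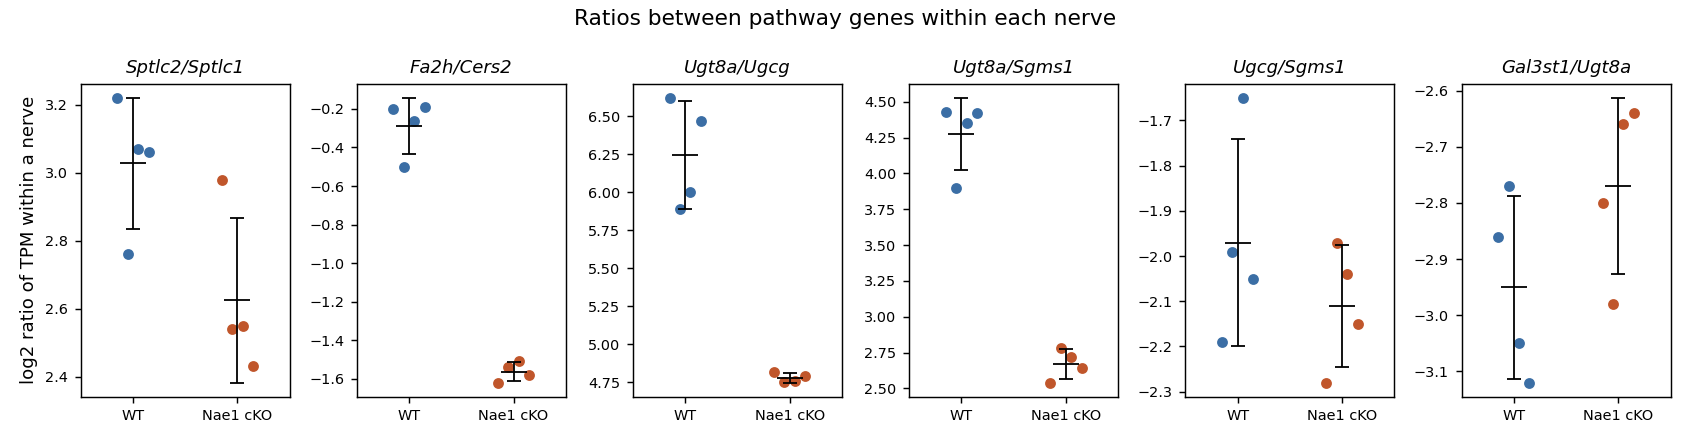
Log2 ratio of TPM between 2 genes in each nerve (vertical axes, each with its own range) for 6 pairs in WT and Nae1 cKO nerves. Points are nerves and bars are the mean ± SD. The groups are apart for Fa2h/Cers2, Ugt8a/Ugcg and Ugt8a/Sgms1 and overlap for the other 3 pairs.

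The files also give for each gene and nerve the mean length of its transcripts, weighted by their estimated abundance, and this was compared after its values had been seen. For Sptlc2 it was 2292, 2335, 2316 and 2209 bases in WT nerves K1, L3, L4 and L9 and 1737, 2047, 1987 and 2107 bases in Nae1 cKO nerves K2, L1, L5 and L8. Every Nae1 cKO nerve was below every WT nerve, and the mean decreased by 13.9% (two-sided exact permutation p = 0.0286). Of all genes tested, 1.86% had shorter and 0.948% longer lengths in every Nae1 cKO nerve. These shares also count genes with the same length in every nerve, such as Sox10 at 2713 bases, which could not differ. The annotation lists 5 Sptlc2 transcripts, of which 1 codes for protein and is 6710 bases long, and the others are 465 to 3769 bases long. The weighted length was thus well under that of the coding transcript in both groups. The fall of Sptlc2 was larger in CPM (log2 −0.93) than in TPM (log2 −0.57), a scale that divides by length. Each of the 10 genes had a higher log2 difference in TPM than in CPM. For Sptlc1, whose mean length decreased by 0.649%, it was −0.16 in TPM and −0.30 in CPM. The part of length in the Sptlc2 gap was not tested. The lengths of Ugt8a were also without overlap, but their mean decreased by 0.835%, from 3674 to 3644 bases.

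**Figure D4:**
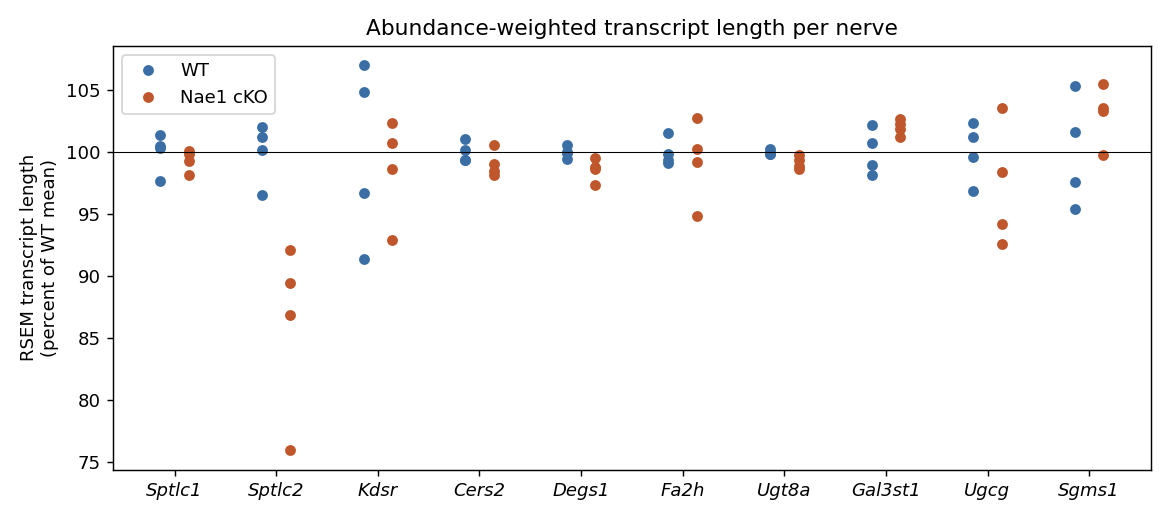
Abundance-weighted transcript length as a percent of the WT mean (vertical axis) for the 10 genes, with a point per nerve. For Sptlc2 the 4 Nae1 cKO nerves lie below the 4 WT nerves, and those of Ugt8a do so by a small margin, whereas the groups of the other 8 genes overlap.

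The other genes of the pathway were taken from 8 lists by function. Of 72 symbols, 71 were in the files and 65 were tested, of which 19 were lower, 13 were higher and 33 did not pass, beside 12.3% lower and 14.1% higher among all genes. Their median log2 fold change was −0.09. With library totals in place of composition scaling the split was 12 lower and 19 higher, so the balance of the 2 directions depends on the scaling. Muscle markers were highest in WT nerves K1 and L4, and when both were left out, a choice made after the data had been seen, 11 were lower and 4 higher in a fit with 2 WT nerves, and 6 of the 10 synthesis genes were lower. On the TPM scale with limma, 3 were lower and 4 higher.

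The elongation of fatty acids, which supplies the ceramide synthases, had 6 of 10 tested genes lower and 1 higher, with a median of −0.53. Elovl6, which elongates palmitate, had 782, 724, 831 and 837 CPM in WT nerves K1, L3, L4 and L9 and 235, 259, 275 and 264 CPM in Nae1 cKO nerves K2, L1, L5 and L8. It was the 1 gene of these 65 that fell more than 2-fold (log2 fold change −1.62, SE 0.0824, edgeR adjusted p = 1.38e-07). Elovl7 (log2 fold change −0.93, adjusted p = 8.97e-06) and Elovl1 (−0.80, adjusted p = 4.72e-05), both elongases of long saturated chains, also fell without overlap. The gene that rose was Hacd4 (0.41, adjusted p = 0.0426), and it did not pass when K1, L4, L9, L1, L5 or L8 was left out (adjusted p = 0.0539 to 0.13).

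Among 6 tested ceramide synthases and desaturases, 2 fell and 1 rose. Fads3, a desaturase that acts on sphingoid bases, fell from 60.0 to 64.9 CPM in WT to 30.7 to 37.9 CPM in Nae1 cKO (log2 fold change −0.87, edgeR adjusted p = 1.46e-05), and Cers4 fell by 0.45 on the log2 scale (adjusted p = 0.00616). Cers6, a synthase that prefers shorter fatty acids than Cers2, rose from 19.1 to 27.3 CPM to 28.8 to 36.2 CPM (log2 fold change 0.53, adjusted p = 0.00593). Of 4 tested partners and ORMDL regulators of serine palmitoyltransferase, Ormdl3, one of its inhibitors, was higher (0.33, adjusted p = 0.0396) and the other 3 did not pass. Ormdl3 did not pass when K1, L3, L4, L1, L5 or L8 was left out (adjusted p = 0.0519 to 0.122).

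Of 8 genes listed around the sugar and sulfate donors, 2 were lower and 2 higher. Papss1, which makes the sulfate donor used by Gal3st1, fell from 228 to 277 CPM to 169 to 204 CPM (log2 fold change −0.49, edgeR adjusted p = 0.00123). Ugdh rose from 30.6 to 34.8 CPM to 63.2 to 76.1 CPM (log2 fold change 1.09, adjusted p = 3.57e-06). Its product oxidises UDP-glucose, so it uses up a sugar donor and does not supply galactolipids with 1. Galactolipid breakdown had 1 of 6 genes higher and 0 lower by edgeR, beside 14.1% higher and 12.3% lower among all genes. Before adjustment, the edgeR p was below 0.05 for 2 of these 6, both of them raised. The same held for at least 6065 of all 17090 genes, counting rises and falls. The gene that passed after adjustment was Sumf1, the activator of sulfatases (log2 fold change 0.31, adjusted p = 0.0232). Sumf1 did not pass without K1, L3, L1 or L5 (adjusted p = 0.06 to 0.0791).

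Glucosylceramide and ganglioside metabolism had 3 of 13 lower and 3 higher. Hexa, a subunit of lysosomal hexosaminidase, rose from 65.7 to 72.9 CPM in WT to 104 to 113 CPM in Nae1 cKO (log2 fold change 0.65, edgeR adjusted p = 3.32e-05), and the macrophage markers above were higher in the same nerves. Their part in it was not tested. B4galt6, which makes lactosylceramide, fell by 0.67 on the log2 scale (adjusted p = 7.05e-05).

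Ceramide transport and sphingomyelin metabolism had 3 of 7 lower and 1 higher. Samd8, a ceramide phosphoethanolamine synthase, fell from 350 to 390 CPM to 222 to 239 CPM (log2 fold change −0.67, edgeR adjusted p = 2.94e-05), and Col4a3bp, the carrier of ceramide from the endoplasmic reticulum to the Golgi, fell by 0.52 on the log2 scale (adjusted p = 0.000523). Sgms2, the second sphingomyelin synthase, rose (0.52, adjusted p = 0.011) at a low level of 8.54 to 11.4 CPM in WT and 12.2 to 14.8 CPM in Nae1 cKO. Among ceramidases and sphingosine 1-phosphate genes 3 of 11 were lower and 3 higher. Sphk1, a sphingosine kinase, rose from 1.35 to 2.53 CPM to 5.57 to 7.69 CPM (log2 fold change 1.68, adjusted p = 0.000123), whereas Cerk, the ceramide kinase, and Sphk2, the other sphingosine kinase, fell by 0.62 and 0.61 on the log2 scale (adjusted p = 0.00157 and 0.00716).

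**Figure D5:**
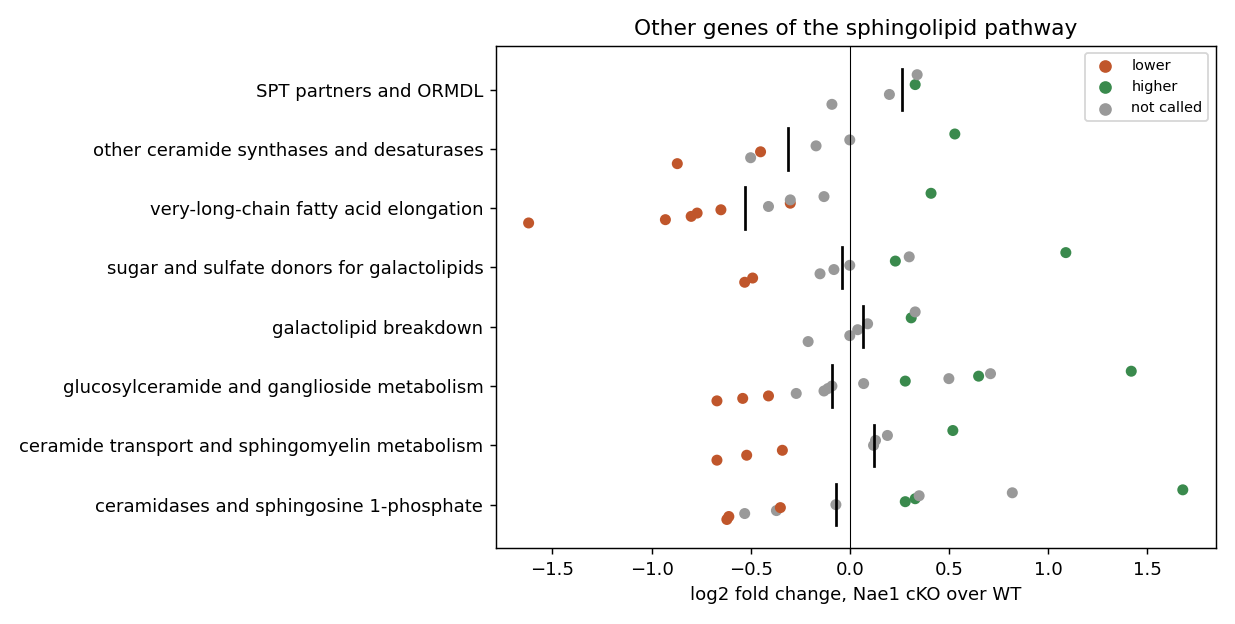
Log2 fold change of Nae1 cKO over WT (horizontal axis) for the 65 tested genes of 8 pathway lists. Each point is a gene, coloured by its call at an adjusted p under 0.05, and the black bars are list medians. The elongation list has the lowest median, −0.53.

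The genes whose log2 CPM followed that of the 3 galactolipid genes most closely over the 8 nerves were looked up among 11329 genes. For Fa2h they included Ppp1r26 (Pearson r = 0.996) and St6gal1 (0.995). For Ugt8a they were Gpr155, Usp32 and Fzd3 (0.998 for each), and for Gal3st1 Tbc1d22a (0.996), Srpk3 (0.994) and Mag (0.994). Each gene named here was lower in Nae1 cKO nerves, with log2 fold changes between −1.18 and −0.63. The points of each r are the same 8 libraries in 2 separate groups, so that r mostly follows the difference between the groups.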

How the data were processed

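Total RNA of sciatic nerves was sequenced after rRNA depletion with a stranded kit. The authors deposited, for each library, RSEM expected counts, TPM, FPKM and transcript lengths (other) per gene. Per the labels' processing notes, FastQC 0.11.5, STAR and RSEM were used on GRCm38, while the methods of the study name TopHat and Cuffdiff. The annotation release is not given in the sources used here. The deposited expected counts were rounded, filtered with filterByExpr (17090 genes kept), scaled by TMM and tested with edgeR 4.0.16 (quasi-likelihood, R 4.3.3) at an adjusted p under 0.05. The deposited TPM served for levels, within-nerve ratios and exact permutation tests (SciPy), and the deposited FPKM only for alternatives, which also used limma 3.58.1 and DESeq2 1.42.0. The genes and lists were chosen with earlier results of these data known, as were the motifs. Genes named from a list were up to 3 with the smallest adjusted p. Alternatives changed the scaling, filter, tool, unit or libraries. In data simulated on 16885 genes for this comparison, 94% of 100 genes changed 2-fold and 100% of 100 changed 4-fold were recovered, with 4 false calls among 198. The changed genes were drawn from those above a minimum mean count, and every gene had the same coefficient of variation, 0.158. These shares hold for those settings and are not the power of the real comparison. The labels do not say that the 4 libraries of a group came from separate mice, so p-values measure the spread between these libraries. Depth was 12962798 to 14766770 expected counts, and no pair of libraries of a group agreed within sampling noise. The chi-square per gene, which grows with the difference of a pair, was 42.3 to 56.9 between K2 and the other Nae1 cKO nerves. It was 4.07 to 9.73 among L1, L5 and L8 and 12.3 to 25.3 between WT nerves, so K2 stood apart from its group. Some genes that the naming rule picked are not reported here.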

Additional observations from a re-analysis of the deposited data

How the results depend on the processing

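The number of lower genes among the 10 was 7, and it was 6 to 7 with each nerve left out in turn, 3 with limma on log2(TPM + 1), where Sptlc1, Sptlc2, Cers2 and Degs1 did not pass, and 5 with library totals or on the FPKM scale, where Sptlc1 and Degs1 did not pass. It was 6 with no filter on low counts. The number over 2-fold was 3 in all alternatives that were run, namely Fa2h, Ugt8a and Gal3st1. The number of higher genes was 0, and 1 with library totals (Sgms1). For the 65 other pathway genes, 19 were lower and 13 higher. With library totals 12 were lower, with limma on log2(TPM + 1) 3 were lower and 4 higher, with limma on log2(FPKM + 1) and on log2(FPKM + 0.1) 11 were lower, and with no filter on low counts 8 were higher. With each nerve left out, 14 to 22 were lower and 8 to 13 higher, and the lowest count of higher genes, 8, came without K1, L4 or L5. Without K1 and L4, the WT nerves with the most muscle RNA, a choice made after seeing the data, 6 of the 10 genes were lower, and of the other genes 11 were lower and 4 higher. That fit has 2 WT nerves. The causes were not tested.

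The differences of log2 ratios on CPM in place of TPM were −0.63 for Sptlc2/Sptlc1, −1.27 for Fa2h/Cers2, −1.43 for Ugt8a/Ugcg and −1.66 for Ugt8a/Sgms1, each at an adjusted p of 0.0429. With each nerve left out, a design whose smallest exact p is 0.0571, the TPM differences ranged from −0.52 to −0.34, −1.35 to −1.24, −1.58 to −1.34 and −1.73 to −1.55 for the same pairs, from −0.21 to −0.03 for Ugcg/Sgms1 and from 0.12 to 0.25 for Gal3st1/Ugt8a. No paired analysis was possible because the labels give no litter or other pairing of the nerves. Group and the letter of the sample names were crossed, with 1 K nerve in each group.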
